A study of Mus musculus with 4 samples.

Results

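The 100 kb stretches of the mouse autosomes that held the most MeDIP-seq peaks were examined in pancreatic islets of offspring and in sperm of founder males. In MeDIP-seq, fragments carrying 5-methylcytosine are pulled down with an antibody and sequenced, and a peak is an interval where such fragments are denser than the local background. The 19 autosomes were divided into 24730 windows of 100 kb from position 1, each peak was placed by its midpoint, and the peaks of all 4 deposited lists were summed per window. The windows kept were those at or above the sum found at rank 247, the top 1%, which was 60 peaks. Because 62 windows tied at that sum, 264 windows (1.07% of 24730) were members. The sums chose the windows, so they are given here as a description and were not tested.

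All animals were ICR mice, an outbred strain. The T2D islet library came from 6 offspring, 3 weeks old, of T2D fathers, and the control islet library from 6 offspring of the same age whose fathers were controls. The T2D sperm library came from 6 founders, 16 weeks old, with the T2D model, and the control sperm library from 6 control founders of that age. The model combined a high-fat diet (33% of energy as fat) with a low dose of STZ (streptozotocin, which damages beta cells) given at 12 weeks, and founders were taken whose fasting blood glucose stood between 7 and 11 mM in the 4 weeks that followed. It therefore joins diet and a toxin. Control founders ate a control diet, and females a standard diet. Sperm was treated with somatic cell lysis buffer. Peak lists hold no marker of islet or sperm identity that could be checked. Each of the 4 groups had 1 library, and the labels do not say how animals were combined, so no difference has a replicate check and no test was made. Intervals are exact 95% binomial intervals and cover counting error only. Peaks of different lists that mark the same place are not independent.

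In mammals, DNA methylation sits almost entirely on cytosines followed by guanine. Most such sites are methylated in somatic cells and in sperm, while CpG islands at many promoters are not. What MeDIP recovers depends on both the methylation level and the number of methylated cytosines within a fragment, so a dense window is one with many separate stretches that pass the peak caller, not a window shown to be methylated at a higher level. Mouse autosomes have their centromere at the end where numbering starts.

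The peak-dense windows formed the end of a broad distribution and not a separate class. They held 60 to 73 peaks (median 62) over the 4 lists, against a median of 27 and a mean of 27.5 in all autosomal windows. The densest window thus held 2.65 times the mean. Totals of all windows had 2 broad humps, with 579 windows at 12 peaks and 565 windows at 42 peaks, and only 345 windows at 28 peaks between them. A further 968 windows held no peak. The windows fell off from 93 at 59 peaks, just below the threshold, to 62 at 60 peaks. Those at 60 peaks had medians of 14 peaks in T2D islets, 15 in control islets, 16 in T2D sperm and 15 in control sperm. Those at 59 peaks had medians of 14, 15, 15 and 15 in the same order. Together the 264 windows contained 16515 of 680628 autosomal peaks, or 2.43% of the peaks in 1.07% of the windows.

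**Figure D1:**
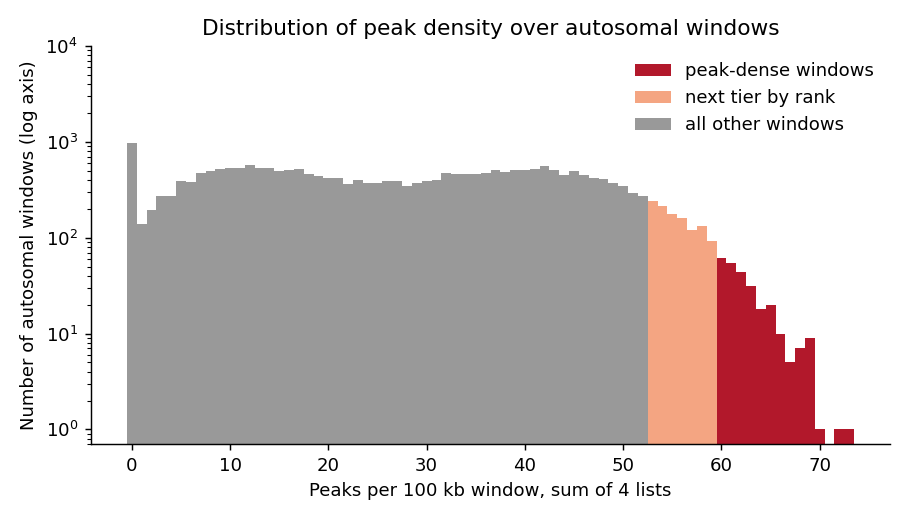
Number of autosomal 100 kb windows (log axis) by peaks per window, summed over the 4 lists. The 264 peak-dense windows (60 to 73 peaks) continue the upper slope of the distribution without a gap from the next tier (53 to 59 peaks), and 968 windows held no peak.

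Every list contributed to every member. The T2D islet list had 10 to 20 peaks per member window (median 15) and the control islet list 10 to 21 (median 15). The T2D sperm list had 12 to 22 (median 16) and the control sperm list 12 to 21 (median 16). The share of a window's peaks that came from a single list ranged from 16.1% to 30.6% for T2D islets, from 16.7% to 33.3% for control islets, from 19.05% to 33.3% for T2D sperm and from 18.2% to 33.9% for control sperm. No list held more than 22 peaks in any autosomal window, far below the sum that members were kept for. No single list could therefore have supplied most of a member's peaks, so these shares are a description only.

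The densest window lay on chromosome 5 from 119100001 to 119200000 (coordinates are in build mm9 throughout). It held 19 peaks in T2D islets and 14 in control islets, and 20 in each sperm list, 73 in all. The islet libraries differed there by 5 peaks, while the sperm libraries had equal counts. The next window, also on chromosome 5, ran from 100700001 to 100800000 and held 16 peaks in T2D islets, 14 in control islets and 21 in each sperm list. Both sperm counts there were above both islet counts.

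The third window, on chromosome 17 from 56500001 to 56600000, held 17 peaks in either islet list, 17 in T2D sperm and 19 in control sperm. Behind these, 9 windows tied at 69 peaks, of which the first 7 by position were taken to complete a list of 10. On chromosome 5 from 33800001 to 33900000 there were 15 peaks in T2D islets, 16 in control islets, 17 in T2D sperm and 21 in control sperm. On chromosome 7 from 38300001 to 38400000 the counts were 16 in T2D islets, 15 in control islets, 20 in T2D sperm and 18 in control sperm. Sperm counts exceeded islet counts in both of these windows.

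Chromosome 9 from 98900001 to 99000000 had 17 peaks in T2D islets, 16 in control islets, 15 in T2D sperm and 21 in control sperm, so the T2D sperm count was the lowest of the 4 and the control sperm count the highest. Chromosome 11 from 67000001 to 67100000 had 18 peaks in either islet list, 15 in T2D sperm and 18 in control sperm. Chromosome 12 from 101100001 to 101200000 had 16 in either islet list, 19 in T2D sperm and 18 in control sperm. In this last window the tissues did not overlap, with sperm above islets.

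Chromosome 14 from 122500001 to 122600000 had 19 peaks in T2D islets, 17 in control islets, 16 in T2D sperm and 17 in control sperm. Chromosome 17 from 65700001 to 65800000 had 18 in T2D islets, 17 in control islets, 18 in T2D sperm and 16 in control sperm. Across these 10 windows there was no common order of the 4 libraries. Peaks covered between 14.5 kb (control islets) and 28.0 kb (control sperm) of the 100 kb, and both extremes belong to the chromosome 5 window from 100700001.

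**Figure D2:**
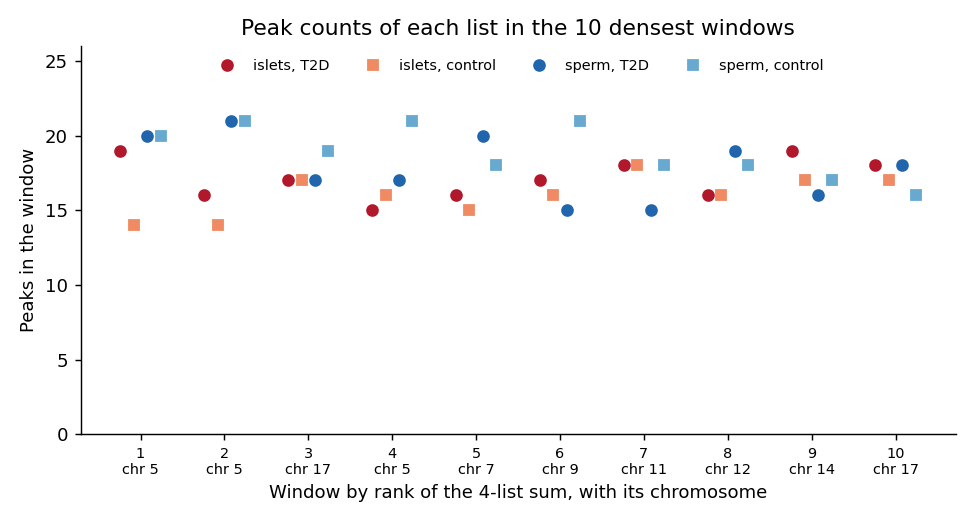
Peaks of each list in the 10 windows with the highest 4-list sum, in order of rank, with the chromosome under each. All counts lie between 14 and 21, and the order of T2D and control libraries changes from window to window.

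The strongest stretch called in all 4 lists was located in each of these windows, chosen by the sum of the caller's scores. In the densest window it lay at chr5:119191400-119193066, close to the end of the window, where the best peak held 104 tags (sequenced reads) in T2D islets, 134 in control islets, 169 in T2D sperm and 154 in control sperm. The fold enrichment that the authors deposited, relative to the background of the caller, was 5.75, 6.53, 7.72 and 6.71 in that order of libraries. In the second window it lay at chr5:100727210-100728392, with 22 tags in T2D islets, 34 in control islets, 63 in T2D sperm and 54 in control sperm. In the third it lay at chr17:56510088-56511116, with 64 and 61 tags in T2D and control islets and 69 and 81 in T2D and control sperm. The strongest stretches of the 10 windows were 792 bp to 2396 bp wide. Tag counts are not scaled to depth, which is not given for islets, so they do not compare the tissues.

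Peak-dense windows were found on every autosome, from 6 on chromosome 16 to 31 on chromosome 5. Relative to the number of windows, they were most frequent on chromosome 19, where they made up 2.12% of 614 windows (interval 1.13% to 3.59%), and on chromosome 5, with 2.03% of 1526 windows (1.38% to 2.87%). Chromosome 17 followed with 1.78% (1.04% to 2.84%). They were least frequent on chromosome 6, with 7 of 1495 windows (0.468%, 0.188% to 0.962%), and on chromosome 7, with 0.524% (0.227% to 1.03%). The next tier of windows by rank, with 53 to 59 peaks, was not as scarce there. It made up 4.35% on chromosome 6 and 4.13% on chromosome 7, against 4.61% of all windows, and was lowest on chromosome 14 (3.51%). Its share was highest on chromosome 15 (6.67%), with 6.19% on chromosome 19 and 5.77% on chromosome 5. Chromosomes 5 and 7 were cut into the same number of windows, 1526, of which 31 and 8 were members. Over all windows of chromosome 5 the mean was 29.2 peaks per window, and over those of chromosome 7 it was 24.98. The highest mean, 31.6, belonged to chromosome 11, where 1.15% of windows were members. Chromosome 5 alone supplied 11.7% of the members from 6.17% of the windows.

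Towards the distal ends of the chromosomes, away from the centromere, dense windows became more frequent. Of the 264 members, 83 (31.4%, interval 25.9% to 37.4%) lay in the last 20% of their chromosome, measured to its last peak, against 20% of all windows. The last 10% of the chromosomes alone held 52 members (19.7%) and the first 10% held 12 (4.55%). Each of the 19 autosomes had a member in its last 20%, and on 18 of them more than 20% of the members lay there. In the last 10%, 17 autosomes had a member, the exceptions being chromosomes 12 and 13. This position was not particular to the members. The next tier of windows by rank, 1141 windows with 53 to 59 peaks, had 37.8% (35.0% to 40.7%) in the last 20%, and the mean of all windows was 35.9 peaks in the last 10% and 18.2 in the first 10%. When windows were ranked by the bases that peaks cover, 50.6% of the windows kept lay in the last 20%.

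**Figure D3:**
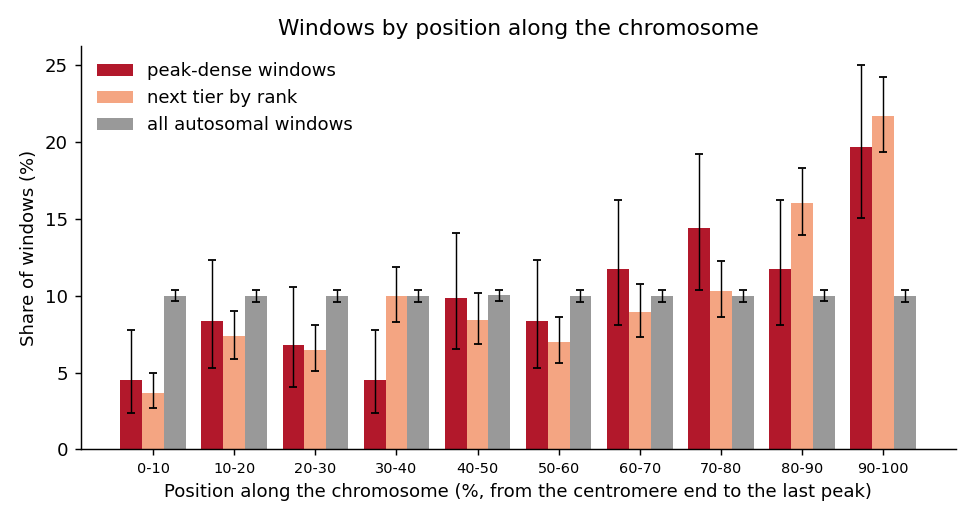
Share of windows (%) in each 10% of the chromosome from the centromere end to the last peak, for the peak-dense windows, the next tier and all autosomal windows, with exact 95% binomial intervals. The peak-dense windows make up 4.55% in the first 10% and 19.7% in the last 10%, and the next tier has a similar slope.

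Most members did not touch another. Of the 264, 16 (6.06%, interval 3.50% to 9.66%) stood in a run of neighbouring members, all in 8 pairs, and the other 248 stood alone. Touching was still above the share of members in the genome: 3.05% of the windows directly beside a member were members, against 1.07% of all windows. That excess rests on 8 pairs. The next tier had 159 touching pairs among 1141 windows. Its share of adjoining windows was not computed, so the excess is not shown to be particular to members. The first pair by total, on chromosome 5 from 100700001 to 100900000, joined windows of 72 and 65 peaks. Its counts were 33 in T2D islets, 31 in control islets, 37 in T2D sperm and 36 in control sperm. The second, on chromosome 19 from 41200001 to 41400000, joined 60 and 69 peaks, with 28 in T2D islets, 34 in control islets, 37 in T2D sperm and 30 in control sperm. In this pair T2D was below control in islets and above it in sperm.

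A pair on chromosome 3 from 116000001 to 116200000 held 128 peaks, as did one on chromosome 15 from 27500001 to 27700000. The chromosome 3 pair had 29 peaks in T2D islets, 31 in control islets, 31 in T2D sperm and 37 in control sperm. The chromosome 15 pair had 30, 31, 32 and 35 in the same order. In both pairs, each T2D count was below its control count. The other 4 pairs lay on chromosome 15 from 75500001, chromosome 19 from 57900001, chromosome 10 from 19900001 and chromosome 17 from 66000001, with 122 to 127 peaks. Chromosomes 15 and 19 therefore had 2 pairs each. Among windows of the next tier, 25.6% of 1141 stood in runs, of at most 4 windows, but that tier holds more windows, so more of them can touch.

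Members also lay near each other without touching. The median distance from a member to the next on its chromosome was 2.8 Mb and the longest 55.7 Mb. Within 1 Mb, 98 members (37.1%) had another that did not touch them. That reach takes in many more windows than those that touch, so this share does not compare with the share in runs. With touching windows included, 107 members (40.5%) had another within 1 Mb. In the next tier, which holds more windows, 81.9% had another of that tier so near. The 5 Mb stretches richest in members lay on chromosome 5 from 99300001 to 104300000 and on chromosome 10 from 57100001 to 62100000, each with 6. The chromosome 5 stretch contains the second densest window and the pair described above. In the chromosome 10 stretch, T2D islets had 12 to 19 peaks per member, control islets 14 to 17, T2D sperm 14 to 17 and control sperm 12 to 19. Further stretches with 5 members lay on chromosomes 1, 13, 15 and 19.

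The windows next to a member were themselves dense, though well below it. Of 524 windows directly beside a member, the median held 44 peaks and the range was 10 to 72, against a median of 27 in all windows. Only 28 of them (5.34%) were below the genome mean of 27.5, while 105 (20.04%) were in the top 5% and 16 (3.05%) were members. At 1 Mb on either side the median was 40 peaks, and at 2 Mb it was 38 towards the centromere and 36 away from it. The next tier had nearly the same surroundings, with a median of 45 and 44 peaks directly beside it and 39 at 1 Mb. Members were kept for a high sum, so the step between a member and its direct neighbours is a description only.

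**Figure D4:**
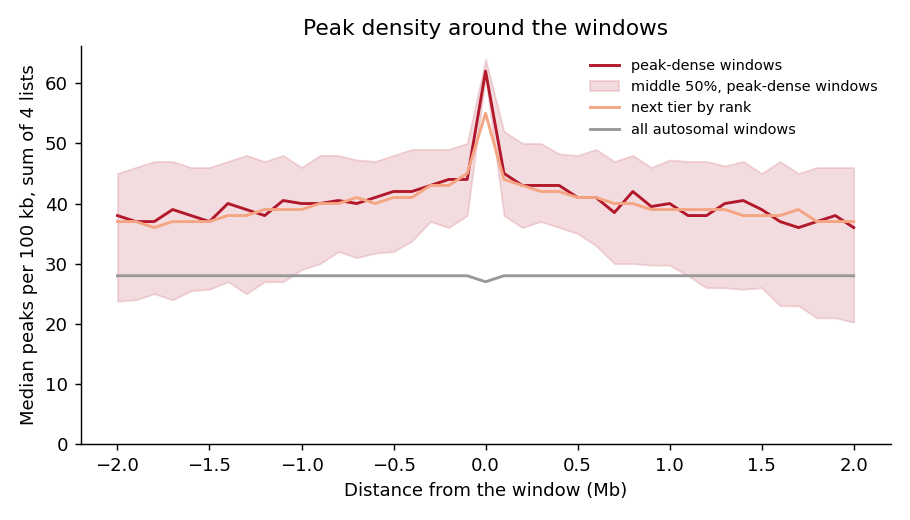
Median peaks per 100 kb (sum of 4 lists) by distance in Mb from the peak-dense windows, the next tier and all autosomal windows; the band is the middle 50% of values around the peak-dense windows. The median is 62 at the peak-dense window, 44 and 45 in the adjoining windows and 40 at 1 Mb, above the level of about 28 around all windows.

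The dense windows held more separate stretches, and each stretch was called in more lists. When overlapping peaks of the 4 lists were merged into regions, a member held 19 to 29 regions (median 23), against a median of 22 in the next tier and 12 in all other windows. Each region accounted for 2.71 peaks in members, 2.55 in the next tier and 2.25 in all other windows. Of the 6094 regions in members, 2154 (35.3%, interval 34.1% to 36.6%) were called in all 4 lists, against 30.3% in the next tier and 21.4% of 295456 regions elsewhere. Between 3 and 13 such regions (median 8) lay in a single member. Regions called in 1 list only made up 22.8% in members, 27.2% in the next tier and 35.7% elsewhere. These shares are tied to the choice of windows, since a region called in more lists adds more to the sum.

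Peaks in members were wider and held more tags than peaks in all other windows, and their enrichment was lower. In T2D islets the median width was 997 bp in members and 899 bp in other windows, in control islets 963 bp and 866 bp. In T2D sperm it was 1138.5 bp and 979 bp, and in control sperm 1148 bp and 987 bp. The median tag count of a peak was 50 in members and 39 elsewhere in either islet list, 67 and 49 in T2D sperm, and 68 and 50 in control sperm. The median enrichment, by contrast, was 6.86 in members and 7.28 elsewhere in T2D islets, 6.95 and 7.35 in control islets, 6.35 and 6.75 in T2D sperm, and 6.46 and 6.77 in control sperm. The direction was the same in all 4 lists for each of these measures. The next tier was alike in width, with 995 bp, 956 bp, 1127 bp and 1131 bp for T2D islets, control islets, T2D sperm and control sperm. Its median tag counts were close to those of the members, at 49, 48, 65 and 66 in that order. Its median enrichment was 6.73, 6.87, 6.30 and 6.42 in that order, below that of the members in all 4 lists, so a low enrichment did not set the members apart from windows nearest to them in density. The caller's local background was taken over 5000 bp per the sperm headers. The median gap between peaks of one list within a member was 3694 to 4142 bp, against 6192 to 6918 bp in other windows. In the next tier it was 4223 to 4661.5 bp, wider than in members in all 4 lists. The part of this spacing in the lower enrichment was not tested.

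Broad peaks of at least 2000 bp were more frequent in members than in all other windows, as they were in the next tier. They made up 6.45% (256 of 3971 peaks) in T2D islets, against 3.88% in other windows, and 4.68% (191 of 4078) in control islets, against 3.13%. In T2D sperm the shares were 10.7% (451 of 4216) and 6.02%, and in control sperm 11.9% (504 of 4250) and 6.16%. The next tier had 6.05% in T2D islets, 5.02% in control islets, 9.90% in T2D sperm and 10.3% in control sperm. Its share was thus above that of the members in control islets and below it in the other 3 lists. The strongest 10% of each list by score were not concentrated to the same degree: in members they made up 10.7% of T2D islet, 11.1% of control islet, 12.2% of T2D sperm and 12.0% of control sperm peaks. In the next tier the shares were 9.38%, 9.81%, 10.4% and 10.6% in that order. Peaks covered a median of 16.8% of a member window in T2D islets, 16.3% in control islets, 19.9% in T2D sperm and 20.4% in control sperm, and at most 32.8%, in T2D sperm. In all other windows the medians were 5.68%, 5.42%, 6.87% and 6.77% in that order, and in the next tier 14.6%, 14.1%, 17.5% and 17.7%. Coverage is tied to the choice of windows, which were kept for holding many peaks.

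Islets and sperm both had many peaks in the dense windows. The top 1% of each tissue alone were mostly different windows, and so were the top 1% of each condition alone. Over the members, islet lists had 8049 peaks and sperm lists 8466, a ratio of 0.951 (0.922 to 0.980), beside 0.931 (0.927 to 0.936) in all other windows. Sperm lists are longer overall. With each list scaled to its autosomal total the ratio in the windows then kept was 1.03 (1.00 to 1.07), so the direction depends on the scaling and the difference from equality is small. In 88 members (33.3%) the islet count was above the sperm count, in 151 (57.2%) below and in 25 (9.47%) equal. The next tier was similar, with 32.3% above, 60.5% below and 7.19% equal. The ratio of a single member ranged from 0.632 to 1.44 (median 0.968).

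Past a ratio of 1.5-fold relative to the autosomal totals, 2 of 264 members were higher in islets, while 11.8% of all autosomal windows with at least 10 peaks and 1.49% of the next tier passed that limit. In the opposite direction 0 of 264 members passed, which allows a share of up to 1.14% when 3 counts are taken as the limit of a count of 0, and of up to 1.39% by the exact interval, against 10.8% of all windows and 1.4% of the next tier. Windows with few peaks pass such a limit more easily, so the next tier is the nearer comparison.

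The members with the highest islet to sperm ratios were on chromosomes 18, 9 and 10. On chromosome 18 from 64600001 to 64700000, there were 17 peaks in T2D islets, 19 in control islets, 13 in T2D sperm and 12 in control sperm. On chromosome 9 from 108200001 to 108300000, the counts were 18, 19, 12 and 14 in the same order. These are the 2 members past the limit. The third, on chromosome 10 from 59400001 to 59500000, had 19, 17, 14 and 12. In each of them both islet counts were above both sperm counts.

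The lowest ratios were found on chromosomes 3, 17 and 2. The window on chromosome 3 from 78900001 to 79000000 held 10 peaks in T2D islets, 14 in control islets, 17 in T2D sperm and 21 in control sperm. That on chromosome 17 from 5500001 to 5600000 held 13, 11, 19 and 19 in the same order, and that on chromosome 2 from 58300001 to 58400000 held 11, 13, 17 and 19. Sperm was above islets in both conditions in these windows. The covered length on chromosome 17 was 11.2 kb in either islet list, against 22.4 kb in T2D sperm and 19.96 kb in control sperm.

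Choosing windows in one tissue and counting in the other gives a measure that the choice did not use. The top 1% by the sperm lists alone were 322 windows with at least 32 sperm peaks. They held a median of 26 islet peaks, with a range of 14 to 36, against a median of 13 and a mean of 13.3 in all windows, so the lowest of them was still above the mean. The top 1% by the islet lists alone were 260 windows with at least 31 islet peaks, which held a median of 28 sperm peaks (range 18 to 40), against 15 in all windows. In the first case 175 of 322 windows (54.3%) were in the top 5% of the other tissue, against 6.78% of all windows, ties kept. In the second 138 of 260 (53.1%) were, against 6.30% of all windows. The top 1% of both tissues had 49 windows in common, which is 18.8% of the islet and 15.2% of the sperm windows. Each top 1% takes in about 1% of all windows. A window in the top 1% is also in the top 5%, so these shares could not be the larger ones. A small overlap was not particular to the tissues. The top 1% by the T2D lists and by the control lists, each over both tissues, had 101 windows in common. That is 25.6% of the T2D and 32.5% of the control windows. Across all 24730 windows the islet and sperm counts, each summed over conditions, had a Pearson correlation of 0.870. Between the single T2D and control lists it was 0.873 in islets and 0.896 in sperm. These values are a description over windows that share chromosome position and base composition.

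T2D and control libraries differed little within the dense windows. In islets the T2D library had 3971 peaks in the members and the control library 4078, a ratio of 0.974 (0.932 to 1.02), against 0.997 (0.990 to 1.00) in all other windows. In sperm the counts were 4216 in T2D and 4250 in control, a ratio of 0.992 (0.9504 to 1.04), against 1.01 (1.00 to 1.01) elsewhere. Both intervals for the members include 1 and the ratio elsewhere. In windows ranked by the sperm lists only, which the islet counts did not choose, the islet ratio was 0.980 (0.939 to 1.02), and in windows ranked by the islet lists only the sperm ratio was 0.977 (0.933 to 1.02).

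Denser parts of the genome had slightly lower T2D to control ratios in either tissue. In islets T2D over control was 1.03 (1.01 to 1.04) in the sparser part of the genome, the windows with up to 26 peaks, 0.995 at 27 to 42 peaks, 0.980 (0.967 to 0.993) at 43 to 52, 0.978 (0.956 to 1.00) at 53 to 59 and 0.974 in the members. In sperm the values were 1.03 (1.01 to 1.04), 1.01, 0.993 (0.980 to 1.01), 0.993 (0.972 to 1.02) and 0.992. The step between the members and the next tier was within counting error in both tissues. For tags the differences had the same direction. In islets, T2D over control tags were 0.975 (0.970 to 0.981) in members, 0.982 in the next tier and 0.997 elsewhere. In sperm they were 0.976 (0.971 to 0.980), 0.982 and 0.999. Unlike those for peaks, the tag intervals of the members include neither 1 nor the ratio elsewhere. They cover counting error of tags only. Relative to each sperm library's unique tags, of which T2D had 1.03 times as many, the sperm values were 0.952 in members and 0.974 elsewhere. With 1 library a group, condition and library cannot be told apart.

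**Figure D5:**
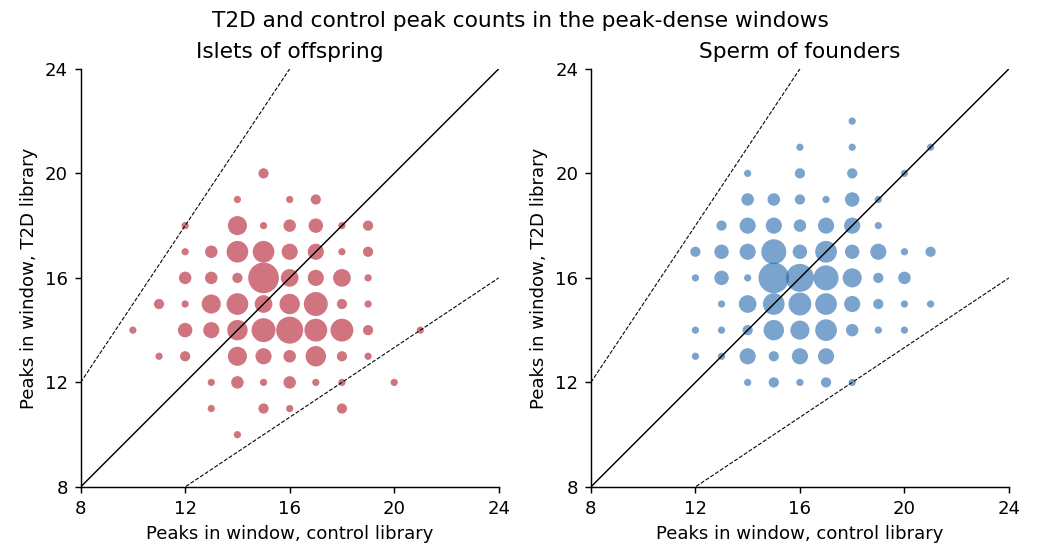
Peaks per member window in the T2D library against the control library, for islets (left) and sperm (right); the area of a point grows with the number of windows, the solid line marks equality and the dashed lines a 1.5-fold difference. Nearly all of the 264 windows lie between the dashed lines in either tissue.

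Single windows scattered around equality. In islets 107 members (40.5%) had more T2D than control peaks, 131 (49.6%) fewer and 26 (9.85%) equal numbers, with differences from -8 to 6 peaks. In the next tier the islet shares were 38.9%, 45.4% and 15.7%. In sperm 102 members (38.6%) had more, 118 (44.7%) fewer and 44 (16.7%) equal numbers, with differences from -6 to 6. The next tier had 42.1%, 45.1% and 12.8% in sperm. The difference was at most 3 peaks in 206 members (78.0%) in islets and in 216 (81.8%) in sperm. In the islet lists, 1 member was at least 1.5-fold higher in T2D and 5 were at least 1.5-fold lower, where 8.53% and 9.12% of all windows with at least 10 peaks, and 2.19% and 3.24% of the next tier, passed the same limits. In the sperm lists 0 members were higher and 1 was lower, where 8.06% and 6.87% of all windows, and 1.58% and 2.63% of the next tier, did. The 0 of 264 allows a share of up to 1.14% by 3 counts and 1.39% by the exact interval, and the limit of 1.5-fold was applied to the raw counts. The member higher in islets, the one lower in sperm and 2 of the 5 lower in islets stood exactly at it. With the limit set relative to the lists' autosomal totals, chosen after seeing the data, 3 members were lower in T2D islets, against 6.19% of all windows and 2.28% of the next tier.

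The islet window that was 1.5-fold higher in T2D lay on chromosome 15 from 75600001 to 75700000, with 18 T2D and 12 control peaks, while the sperm libraries had 16 each. Next were chromosome 8 from 111000001 to 111100000, with 17 T2D and 12 control islet peaks and 19 T2D and 14 control sperm peaks, and chromosome 17 from 7900001 to 8000000, with 14 and 10 in islets and 20 and 16 in sperm. In the chromosome 8 and 17 windows T2D was above control in both tissues.

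Lower islet counts in T2D were led by chromosome 4 from 106000001 to 106100000, with 12 T2D and 20 control peaks in islets and 13 and 15 in sperm. Peaks covered 11.4 kb there in T2D islets, against 19.6 kb in control islets. Chromosome 5 from 142500001 to 142600000 had 11 T2D and 18 control peaks in islets and 17 and 19 in sperm. Chromosome 11 from 119800001 to 119900000 had the same islet counts, 11 and 18, and 14 T2D and 19 control peaks in sperm. The other members at the limit, named after their values were seen, were chromosome 1 from 167500001, with 14 T2D and 21 control islet peaks, and chromosome 8 from 127900001, with 12 and 18.

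In sperm the T2D count stood highest over the control count on chromosome 4 from 137600001 to 137700000, with 20 T2D and 14 control sperm peaks and 15 and 16 islet peaks. It was followed by chromosome 10 from 122400001 to 122500000, with 17 and 12 in sperm and 18 and 19 in islets, and chromosome 15 from 76600001 to 76700000, with 17 and 12 in sperm and 16 and 15 in islets. The islet libraries differed by 1 peak in each of these windows.

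The lowest T2D to control ratio in sperm was on chromosome 5 from 147000001 to 147100000, with 12 T2D and 18 control sperm peaks, while islets had 17 and 14. Chromosome 10 from 19900001 to 20000000, the first window of a pair, had 14 and 20 in sperm and 14 and 15 in islets. Chromosome 5 from 38500001 to 38600000 had 12 and 17 in sperm and 17 in either islet library. In this window T2D sperm peaks covered 12.2 kb and control sperm peaks 22.8 kb.

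Whether a member differed in the same direction in sperm of founders and islets of offspring was counted last. T2D was above control in both tissues in 52 members and below it in both in 67. It was above in islets and below in sperm in 37, below in islets and above in sperm in 43, and tied in at least one tissue in 65. The same counts were not made for other windows. Whether the members differ from them in this was therefore not tested, and the counts are not read as agreement between fathers and offspring. At the level of merged regions, 870 (14.3%) of the 6094 in members were called in T2D but not control islets and 958 (15.7%) the reverse, against 17.4% and 17.5% of regions elsewhere. In sperm 872 (14.3%) were called in T2D only and 916 (15.0%) in control only, against 17.8% and 17.4%. Values of the next tier lay between, with 15.6% and 16.8% in islets and 15.2% and 15.6% in sperm. Such shares are tied to the choice of windows, since a region called in more lists adds more to the sum. Regions that were T2D only in both tissues numbered 125 and those that were control only in both 133, beside 123 found with T2D in islets but with control in sperm, and 117 with the opposite pattern. These are 2.05%, 2.18%, 2.02% and 1.92% of the regions in members, close to the 2.25%, 2.27%, 2.20% and 2.26% of regions in all other windows.

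More peaks had a partner in the other condition in members than elsewhere, at an overlap of at least 1 bp. The share was 77.1% (75.7% to 78.4%) for T2D islet peaks in members, against 67.2% in other windows, and 75.3% against 67.1% for control islet peaks. For T2D sperm peaks it was 79.0% (77.8% to 80.3%) against 69.3%, and for control sperm peaks 78.1% against 69.8%. The next tier stood between, with 73.7% for T2D islets, 72.4% for control islets, 76.5% for T2D sperm and 76.01% for control sperm. These shares are tied to the choice of windows, since a place called in more lists adds more to the sum. Partners in the other tissue under the same condition were found for 71.9% of T2D islet peaks in members, against 58.3% elsewhere, and for 67.6% of T2D sperm peaks, against 53.9%. In the control libraries these were 72.9% against 59.5% for islets and 69.4% against 55.4% for sperm. Next-tier shares lay between, with 67.5% for T2D islets, 62.8% for T2D sperm, 68.5% for control islets and 64.6% for control sperm. Where peaks are denser and wider, more of them overlap by placement alone, and the part of that in these shares was not tested.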

How the data were processed

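MeDIP-seq peak lists of 4 libraries were used, 1 per group. Per the labels' protocols, libraries were amplified with 15 PCR cycles and fragments of about 250 bp selected. Per the submitters' processing notes, the build was mm9 and CASAVA 1.4 was used. MACS called the sperm peaks from 49 bp tags with no control file and a p-value cutoff of 1.00e-05, per the file headers. The islet lists carry no such header, and their caller and depth are not stated in the sources used here. The T2D and control sperm libraries held 31833988 and 31053754 unique tags. The authors deposited tag counts per peak, a score (10 times the negative log10 of the p-value) and a fold enrichment ratio, which are the authors' own values within each list. The lists held 167325 (T2D islets), 167712 (control islets), 178584 (T2D sperm) and 177342 (control sperm) peaks.

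Windows, sums, merged regions and overlaps were computed in Python 3.11.15 with numpy 2.4.6, pandas 2.3.3 and scipy 1.17.1, and tested on simulated lists. Windows ran to the last peak of each chromosome. The members and the lists of windows were chosen with earlier results of these data known. Named windows were the 10 densest, the runs, and the 3 highest and lowest members by each ratio. Single-library counts carry counting error only, and PCR copies are not independent molecules. The reference tables are of another build, so genes and sequences at these positions were not used here. Alternatives were other window sizes and starts, shares kept, peak filters, units ranked and list weights.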

Additional observations from a re-analysis of the deposited data

Results flagged for a closer look

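Of the 12 windows named for their T2D to control ratio, 3 had T2D above control in one tissue and below it in the other. On chromosome 4 from 137600001 to 137700000, T2D minus control was -1 peak in islets and 6 in sperm. On chromosome 10 from 122400001 to 122500000, it was -1 in islets and 5 in sperm. On chromosome 5 from 147000001 to 147100000, it was 3 in islets and -6 in sperm. The windows were picked for an extreme ratio in sperm, each group had 1 library, and the difference between the tissues was not tested.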

How the results depend on the processing

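No paired analysis was possible because each group had 1 library. The number of windows kept followed the setting, with 644 at 50 kb, 135 at 200 kb, 147 for the top 0.5%, 610 for the top 2% and 464 when each merged region was counted once. The share in runs (6.06%) became 10.4% at 200 kb, 15.9% for the top 2%, 14.9% with merged regions and 18.2% by covered bases. The share in the last 20% of the chromosome (31.4%) became 40.7% at 200 kb, 40.5% with merged regions and 50.6% by covered bases. The islet to sperm ratio (0.951) became 0.982 by covered bases and turned to 1.03 with lists weighted by their totals. The T2D to control ratios stayed within their intervals under all alternatives run, although the sperm ratio (0.992) was 1.00 at 200 kb and 1.01 with the best 50% of peaks by score. With merged regions counted once, the islet ratio was 0.964 with an interval of 0.930 to 0.9987, which does not include 1. With the 1.5-fold limit set relative to the lists' totals, chosen after seeing the data, the members lower in T2D islets numbered 3 in place of 5, and the other 3 condition counts were equal. Which windows were kept depended on what was ranked: 116 of the 264 members were kept with the best 50% of peaks by score, 107 with merged regions, 106 by covered bases and 247 with weighted lists. The cause was not tested. Depth limits the counts per window, and the depth of the islet libraries is not known.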

Other observations

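The sex chromosomes were outside the ranking. On X, the 1665 windows had a median of 5 peaks over the 4 lists and a maximum of 36. Thus 0 reached the autosomal threshold of 60 and 0 reached the 53 of the next tier. In a sample of windows such a count would allow up to 0.180% by 3 counts, but here all X windows were counted. The sex of the offspring is not in the labels. Ranked by the T2D lists alone, the top 1% were 395 windows, and by the control lists alone 311. They had 101 windows in common, or 25.6% of the T2D and 32.5% of the control windows.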
